A study of Rattus norvegicus with 34 samples.

Results

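Propiconazole, a triazole fungicide, was given in the diet at 500 ppm, and the testis transcriptome of the exposed rats was compared with that of rats on a diet at 0 ppm. The comparison rests on 10 of the 31 arrays with values in the series: the 4 labelled P500, replicates 01 to 04, and the 6 labelled Control, replicates 02 to 07, 1 animal per array. The animals were Wistar Han males, all exposed or held on control diet from gestation day 6 to postnatal day 92, when the testis was taken, so exposure of P500 ran from the womb through suckling into adulthood. The series labels 34 samples, and 3 of them, among them Control replicate 01, are marked there as left out and were not analysed here. For a comparison of compounds at the same dose, 3 arrays of myclobutanil at 500 ppm (M500) and 4 of triadimefon at 500 ppm (T500) were used, and for a comparison of doses 5 arrays of propiconazole at 2500 ppm (P2500). The labels do not name litters, and since brothers of 1 litter would not be independent, p-values measure only the spread between these animals. All P500 animals carried numbers of the earlier of 2 series of animal numbers, as did Control replicates 02 to 04, while Control replicates 05 to 07 carried numbers of the later one.

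Triazole fungicides block the fungal sterol demethylase Cyp51 and thereby the synthesis of ergosterol. The mammalian enzyme of the same name removes a methyl group from lanosterol on the way to cholesterol, and other cytochrome P450 enzymes of the testis carry out steps of testosterone synthesis in Leydig cells and the breakdown of retinoic acid. In rodent liver these compounds are known for activating the xenobiotic receptors CAR and PXR and inducing the P450 enzymes those receptors control. Spermatogenesis depends on testosterone acting through Sertoli cells, so genes of sterol and steroid synthesis, retinoid turnover, drug metabolism and each testicular cell type were read in turn.

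Each probe set came with 1 deposited score per array, log-like but of unknown base, and the middle of each array lay near 0. The scores were quantile normalized here, and every level is such a score and every difference is in score units, which cannot be turned into folds. The tissue label was borne out by the spermatid markers, whose mean score was 2.95 to 3.15 on the 10 arrays, against 0.505 to 0.522 for all genes. One of them, the outer dense fibre gene Odf1 of the sperm tail, scored 4.24 to 4.52. RNA quality was read from the actin gap, which tells how far the 3' probe set of beta-actin outscored the 5' one and grows as 5' ends are lost. The gap was 0.85, 1.10, 1.27 and 1.33 on P500 replicates 01 to 04. On Control replicates 03, 04, 05 and 07 it lay between 0.833 and 0.878, and on Control replicates 02 and 06 it was 1.67 and 1.63. The groups differed in mean by less than their spread (1.14 ± 0.213, SD, n = 4, against 1.12 ± 0.408, SD, n = 6; difference 0.0135, exact permutation test, two-sided p = 0.962 over 210 assignments, smallest possible p 0.0048), but the 3 highest P500 arrays lay between the 2 kinds of Control array. Across probe sets, which are not independent, Control replicates 02 and 06 correlated at 0.954 to 0.985 with the other 8 arrays, which correlated at 0.976 to 0.998 with each other. Results are therefore also given without the 5 arrays of the series whose gap exceeded 1.4, and no part of the gap in any difference was tested beyond that and a fit with the gap as a covariate.

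No probe set differed between P500 and Control at an adjusted p of 0.05 or less (0 of 31042, 0.0%, limma with Benjamini-Hochberg adjustment; smallest adjusted p = 0.96). With an unadjusted p below 0.05 there were 644 probe sets higher in P500 (2.07% of those tested) and 398 lower (1.28%), 1042 in all where 1552 would arise with no difference anywhere. The interquartile range of all differences ran from -0.0211 to 0.0221, and the median SE of a difference was 0.0348. In 137 probe sets (0.441%) every P500 array lay above every Control array, and in 73 (0.235%) every P500 array lay below. With no difference between groups, each direction would arise in 1 of 210 equally likely assignments of the arrays (0.0048). Neither share exceeded that, so separation of a gene named below is a description only. The count of 0 did not hold under every setting. With limma's array weights 17 probe sets passed, 11 higher and 6 lower, and without the 5 arrays of large actin gap 198 passed, which are described further on. The genes next described are those of smallest p, upwards and downwards, that carry 1 gene symbol, none of which passed, so their values are a description of where the 2 groups lay farthest apart.

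Among the 12 genes that lead upwards were enzymes and regulators with no common role. Gdpd1 encodes a glycerophosphodiester phosphodiesterase with lysophospholipase D activity. It scored 0.89, 0.89, 0.87 and 1.02 on P500 replicates 01 to 04 and from 0.70 to 0.81 (median 0.81) on the Control arrays, a difference of 0.135 (SE 0.027). All 4 P500 arrays lay above all 6 Control arrays. A second, brighter probe set of the gene gave 0.0797 (SE 0.06), with overlapping groups.

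Arid4b, a chromatin protein of the SIN3A corepressor complex that mouse Sertoli cells need, scored 0.39, 0.47, 0.44 and 0.41 in P500. The Control arrays ran from 0.12 to 0.30 (median 0.20), so the groups were separate, and the difference was 0.232 (SE 0.049). Nat10, the acetyltransferase that modifies cytidines in ribosomal and messenger RNA, scored 0.50, 0.57, 0.53 and 0.64 against 0.24 to 0.39 (median 0.34), a difference of 0.227 (SE 0.05). The P500 arrays were again all higher. Cyp2g1, a cytochrome P450 known from the olfactory mucosa, was almost level across P500 at 0.38, 0.38, 0.39 and 0.39 and spread from 0.14 to 0.34 (median 0.21) in Control. The difference of 0.152 (SE 0.035) separated the groups without overlap.

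Usp6nl, which switches off Rab GTPases, lay above every Control array with 0.16, 0.21, 0.14 and 0.16 against -0.0019 to 0.11 (median 0.035). Its difference was 0.123 (SE 0.031), whereas its other probe sets gave -0.0482 (SE 0.031) and 0.0297 (SE 0.032) with overlap. Of the strongly expressed leaders, Oscp1, an organic solute carrier partner of the testis, scored 2.81, 2.71, 2.84 and 2.85 against 2.55 to 2.71 (median 2.60), and Btg3, an antiproliferative protein, 1.34, 1.33, 1.37 and 1.36 against 1.21 to 1.28 (median 1.25). Neither group pair overlapped, and the differences were 0.182 and 0.0961. Plekhh2, a pleckstrin-domain protein tied to the actin cytoskeleton, measured 2.03 ± 0.0327 (SD, n = 4) against 1.88 ± 0.0727 (SD, n = 6), and the dim sugar transporter gene Naglt1 -0.0554 ± 0.0266 (SD, n = 4) against -0.125 ± 0.0305 (SD, n = 6), both with every P500 array above every Control array. A second, much dimmer probe set of Plekhh2 went the other way, by -0.0392 (SE 0.023). The other 3 of the 12, Wdr38, Atp6ap1l and Arhgap28, differed by 0.117, 0.186 and 0.0684 with at least 1 Control array inside the P500 range. The other probe sets of Arhgap28 gave -0.0332, 0.00688 and 0.0304.

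Downwards, the largest differences among the 12 leaders belonged to Ciita and Acsl1. Ciita is the transcriptional coactivator that switches on MHC class II genes. One of its 2 probe sets scored -0.23, -0.24, -0.25 and -0.33 in P500 and from -0.22 to 0.83 (median 0.34) in Control, a difference of -0.576 (SE 0.18). The P500 arrays lay close together and just below the lowest of a widely spread Control group. The other probe set showed the same order, with 0.32, 0.34, 0.35 and 0.27 against 0.36 to 0.97 (median 0.71) and a difference of -0.38 (SE 0.13). Both probe sets thus lay below all 6 Control arrays on all 4 P500 arrays, yet the adjusted p was 1.0 for each. Control replicate 02 was the highest array of the first probe set. Without the arrays of large gap the differences were -0.463 (adjusted p = 0.14) and -0.373.

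Known targets of Ciita overlapped between the groups in each probe set, and most lay lower in P500 (these were singled out after their values were seen). The invariant chain gene Cd74 scored 0.90, 0.69, 0.84 and 0.75 in P500 against 0.62 to 1.09 (median 0.94), and the class II chain RT1-Da 0.61, 0.39, 0.53 and 0.63 against 0.44 to 0.70 (median 0.65). Both groups overlapped, with differences of -0.119 (SE 0.073) and -0.0798 (SE 0.061). The brightest of 4 RT1-Ba probe sets differed by 0.00249 (SE 0.073), and by -0.0931 without the arrays of large gap, while the other 3 gave -0.0457, -0.0154 and 0.000717 over all arrays. Both probe sets of the chain RT1-Db1 were lower, by differences of -0.286 (SE 0.16) and -0.168 (SE 0.14). Those of RT1-Bb were of opposite sign, 0.158 (SE 0.33) for the brighter and -0.328 (SE 0.33) for the dimmer, with SEs larger than those of the other chains.

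Acsl1, the long-chain acyl-CoA synthetase that activates fatty acids for oxidation and lipid synthesis, scored 0.98, 1.15, 0.96 and 1.22 in P500 and from 1.04 to 1.69 (median 1.49) in Control. The difference was -0.35 (SE 0.091), and Control replicate 07, at 1.04, lay among the P500 arrays. The 2 highest Control values were those of replicates 06 and 02, and without the arrays of large gap the difference was -0.244 (adjusted p = 0.14). Its second probe set gave 1.65, 1.70, 1.66 and 1.77 against 1.64 to 1.98 (median 1.88), and the dimmest one gave -0.113 (SE 0.041). Without the arrays of large gap these 2 gave -0.0996 and -0.0801. All 3 probe sets of the gene were on the lower side in P500, and none was free of overlap between groups.

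Mcpt4, a mast cell chymase, scored -0.42, -0.40, -0.36 and -0.44 against -0.36 to -0.24 (median -0.33) and lay below every Control array, with a difference of -0.0967 (SE 0.022). That score was under bioB, the spike-in of lowest concentration, on all 10 arrays. So were the scores given for Ctnnd1, Aspa, Camta2 and the first Ciita probe set. Among the genes leading upwards the same held for Arid4b, Nat10, Cyp2g1, Usp6nl, Arhgap28 and Naglt1. The dimmer probe set of Gdpd1 exceeded bioB on 2 arrays. Signal over background is therefore a limit for all of these. A pair of strongly expressed genes stood lower as well. Pdap1, a binding partner of platelet-derived growth factor, scored 1.35, 1.30, 1.37 and 1.26 against 1.38 to 1.51 (median 1.44) without overlap, and Sf3a2, a spliceosome subunit, 1.32, 1.13, 1.45 and 1.16 against 1.43 to 1.80 (median 1.48) with overlap. Ctnnd1, the p120 catenin that stabilises cadherins at junctions, measured 0.156 ± 0.0383 (SD, n = 4) against 0.238 ± 0.0266 (SD, n = 6) and did not overlap either.

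Aspa, which splits N-acetylaspartate, scored 0.18, 0.15, 0.13 and 0.18 in P500, while the Control arrays ran from 0.13 to 0.54 (median 0.40). Only Control replicate 02, the array of largest actin gap, lay within the P500 range, at 0.13. The difference was -0.23 (SE 0.069) with all Control arrays and -0.298 (SE 0.065) without the arrays of large gap, where it passed (adjusted p = 0.046). Camta2, a calmodulin-binding transcription activator, differed by -0.121 (SE 0.038) over all arrays and by -0.127 without those of large gap (adjusted p = 0.047). The remaining genes of the 12 were also under bioB on every array. They were the repressor Zbtb7a, the centromere protein Sgo2, the heparan sulfate sulfotransferase Hs6st1 and the tRNA synthetase Iars1, with differences of -0.0761, -0.0976, -0.055 and -0.135. A brighter probe set of Iars1 gave 0.0482 (SE 0.05). Of the 127 genes with a symbol named in the text, 47 had several probe sets, and in 29 of these the differences from Control were of both signs, so a value belongs to its probe set and, where none is specified, to the one of highest mean or smallest p.

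**Figure D1:**
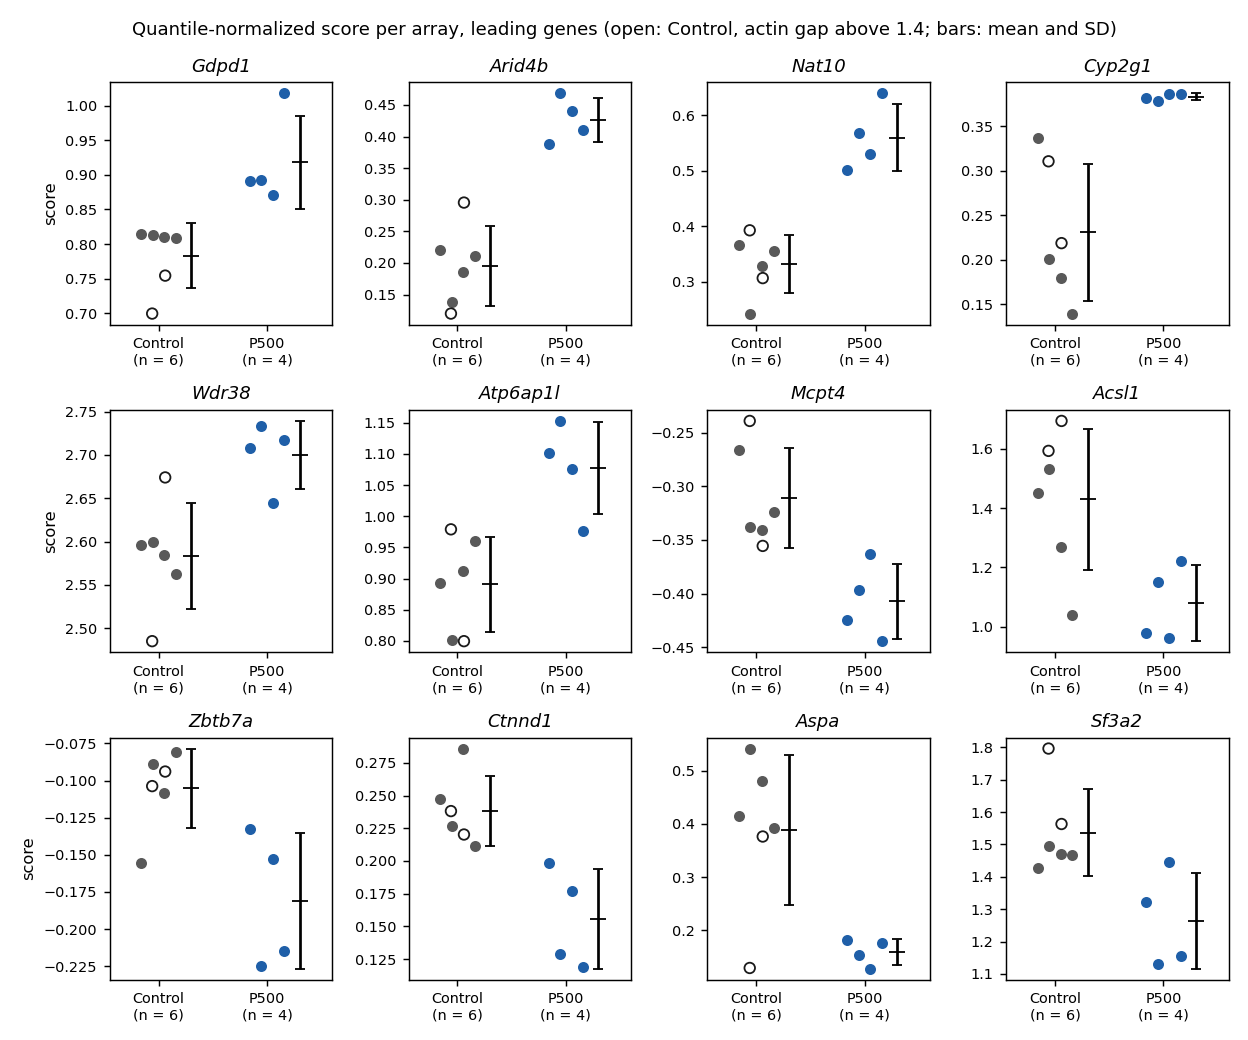
Quantile-normalized score (vertical axis, score units) of the first 6 genes leading in each direction, 1 point per array, for Control (n = 6) and P500 (n = 4), with the mean and SD beside the points. Open circles mark Control replicates 02 and 06, whose actin gap exceeded 1.4; Nat10 and Arid4b separate all P500 from all Control arrays, while Acsl1 and Aspa each have 1 Control array among the P500 values.

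Sterol synthesis, where the fungicide's target enzyme acts, gave no call. Cyp51 scored 1.18, 1.33, 1.28 and 1.54 in P500 and from 1.08 to 1.55 (median 1.12) in Control, with overlapping groups. The difference of 0.102 (SE 0.13) had a 95% interval, here and below not adjusted for the number of genes, from -0.156 to 0.36. The 2 highest Control values were those of replicates 02 and 06, and without the arrays of large gap the difference was 0.229 (adjusted p = 0.11). The dimmer probe set of Cyp51 gave 0.007 (SE 0.036), and 0.0275 without the arrays of large gap. Of 23 genes of cholesterol synthesis and uptake measured, 18 lay higher and 5 lower, with 0 called and a median difference of 0.027. Over all genes 57.3% lay higher and the median was 0.0061. Without the arrays of large gap the list's median was -0.00038. Squalene epoxidase, Sqle, scored 1.35, 1.44, 1.42 and 1.48 against 1.16 to 1.37 (median 1.35), a difference of 0.111 (SE 0.04), and the phosphomevalonate kinase Pmvk differed by 0.0549 (SE 0.023). Acat2, which condenses acetyl-CoA, differed by 0.0885 (SE 0.048), and Dhcr7, the last step to cholesterol, by -0.0444 (SE 0.032). All 4 group pairs overlapped.

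In the Leydig cell pathway from cholesterol to testosterone, the members lay on both sides of Control. Star, which carries cholesterol into mitochondria, scored 0.79, 0.71, 0.90 and 0.44 against 0.40 to 0.82 (median 0.60). Cyp11a1, which cleaves the side chain, scored 1.16, 0.88, 1.33 and 0.95 against 0.98 to 1.44 (median 1.13), and Cyp17a1, which makes the androgen precursor, 1.79, 1.56, 1.90 and 1.34 against 1.35 to 1.89 (median 1.54). In each of the 3, the P500 arrays spanned most of the Control range. Hsd3b1, the dehydrogenase acting between those enzymes, scored 1.20, 1.11, 1.24 and 1.52 in P500 and from 1.28 to 1.69 (median 1.45) in Control, a difference of -0.194 (SE 0.1) with an interval from -0.407 to 0.0202. P500 replicates 01, 02 and 03 lay under the lowest Control array and replicate 04 within the range. Hsd17b3, which makes testosterone itself, was dim and level (-0.00415 (SE 0.025), interval -0.0555 to 0.0472).

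The electron donors and hormone genes of Leydig cells gave no call either. Por, the reductase that serves all microsomal P450 enzymes, differed by -0.0393 (SE 0.045), and Lhcgr, the luteinizing hormone receptor, by 0.00724 (SE 0.06). Insl3, the Leydig peptide hormone, scored 1.20, 0.88, 1.26 and 0.89 in P500 and from 0.46 to 1.35 (median 1.27) in Control. Its lowest Control values were those of the 2 arrays of large gap, and the difference went from 0.0207 to -0.252 (adjusted p = 0.12) without such arrays. Cyb5b, a cytochrome b5 of the outer mitochondrial membrane, lay above every Control array, as did 87 of 14217 over all genes. It was the 1 Leydig list gene named here to do so, with 0.55, 0.62, 0.55 and 0.56 against 0.43 to 0.54 (median 0.50) (0.0806 (SE 0.026)). Its dimmer probe set gave 0.00922 (SE 0.055), and -0.0414 without the arrays of large gap. Hsd11b1, which interconverts cortisone and active glucocorticoid, differed by 0.176 (SE 0.077) and aromatase, Cyp19a1, by 0.0419 (SE 0.025). In all, 12 of 19 genes lay higher with a median of 0.021 and 0 called. Without the arrays of large gap 8 lay higher and 11 lower, the median was -0.0091 and 0 were called. The list reads each gene by its brightest probe set, which for Nr5a1 gave -0.00898 in that fit. Its dimmer probe set, at -0.105, was called lower and is described further on.

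**Figure D2:**
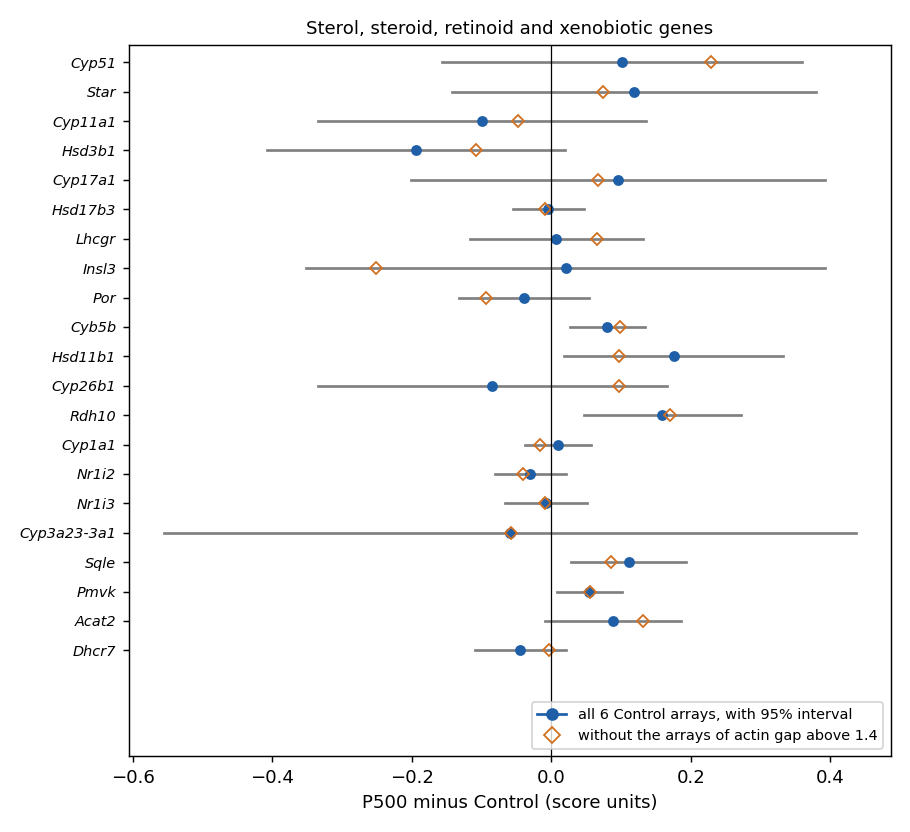
Difference of P500 minus Control in score units for 21 genes of sterol, steroid, retinoid and xenobiotic metabolism. Circles and lines give the value and 95% interval with all 6 Control arrays, diamonds the value with arrays whose gap exceeded 1.4 removed; the interval of Cyp51 runs from -0.156 to 0.36 and all but those of Cyb5b, Hsd11b1, Rdh10, Sqle and Pmvk span 0.

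Genes that respond to xenobiotics in liver gave no call in testis over all arrays. The receptor genes Nr1i2 (PXR) and Nr1i3 (CAR) scored between -0.41 and 0.061 on the 10 arrays and differed by -0.0301 (SE 0.025) and -0.00777 (SE 0.028). Cyp1a1, a target of the dioxin receptor, differed by 0.00977 (SE 0.023). Cyp3a23-3a1, a PXR target in liver, scored -0.46, -0.39, -0.42 and -0.44 against -0.46 to -0.25 (median -0.39). Both groups were at the dim end of the scale. The sulfotransferase Sult1a1 lay at 0.51, 0.39, 0.52 and 0.42 against 0.21 to 0.40 (median 0.35), and Cyp1b1, a P450 of steroidogenic tissue, differed by 0.0975 (SE 0.075). Cyp2c11 and Cyp3a2, P450 enzymes of male rat liver, were the 2 of the list that lay below every Control array (26 of 14217 over all genes), Cyp2c11 at -0.33, -0.24, -0.27 and -0.27 against -0.22 to 0.02 (median -0.15) and Cyp3a2 at -0.41, -0.37, -0.42 and -0.42 against -0.35 to 0.019 (median -0.24). Both are also on the list of liver transcripts given further on. Of 31 genes, 17 lay higher, the median was 0.0015 and 0 were called. Without the arrays of large gap 21 lay lower, with a median of -0.019, and 1, Gstp1, was called lower (28 of 14217 over all genes).

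For retinoids, Rdh10, which oxidises retinol as the first step to retinoic acid, scored 2.26, 2.26, 2.19 and 2.45 against 2.04 to 2.27 (median 2.13). Control replicate 06 lay above 3 of the P500 arrays, and the difference was 0.159 (SE 0.055). Cyp26b1, which breaks retinoic acid down, scored 1.25, 1.395, 1.44 and 1.41 against 1.17 to 1.91 (median 1.32), where the 2 highest Control values were again those of the arrays of large gap. Its difference turned from -0.0843 to 0.0966 without such arrays (adjusted p = 0.33). The dimmer probe set of Cyp26b1 did not turn, with -0.00625 (SE 0.057) over all arrays and -0.091 without those of large gap. The receptors Rarg and Rxrg differed by 0.0177 and 0.022, and by -0.00614 and -0.0178 without such arrays. Of 18 retinoid genes 6 lay higher, 8 without the arrays of large gap, with 0 called in either.

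Fatty acid genes other than Acsl1 lay mostly on the higher side. Of 29 measured, 24 were higher in P500 (82.8%, against 57.3% of all genes). The median was 0.027 over all arrays and 0.043 without those of large gap, with 0 called in either. Acadl, the long-chain dehydrogenase of mitochondrial oxidation, scored 1.08, 1.05, 1.08 and 1.07 against 0.68 to 1.07 (median 0.97). Its 2 lowest Control values came from replicates 02 and 06, and the difference of 0.158 (SE 0.068) was 0.048 without the arrays of large gap. Hsd17b4, the peroxisomal multifunctional enzyme, scored 0.88, 0.91, 0.92 and 0.98 against 0.80 to 0.89 (median 0.82). Acaa2, a mitochondrial thiolase, differed by 0.125 (SE 0.071), its P500 replicate 02 lying within the Control range and Control replicate 02 above all P500 arrays.

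Among germ cell markers, spermatid genes lay higher with the full Control group and level without its 2 arrays of large gap. Of 25 spermatid genes 19 were higher, with a median of 0.042, which was -0.0061 without the arrays of large gap. The list mean was 3.09 to 3.15 on the P500 arrays, 3.14 or 3.15 on Control replicates 03, 04, 05 and 07, and 2.95 and 2.97 on Control replicates 02 and 06. Odf1 held rank 2 among all probe sets on 7 of the 10 arrays, and since quantile normalization gives equal ranks equal scores, its values tie there. It had 4.52, 4.49, 4.52 and 4.52 in P500 and Control values of 4.24 and 4.26 on those 2 arrays against 4.52 on replicate 03. Capza3, a capping protein of the sperm head, differed by 0.095 (SE 0.04) and Akap4, the main fibrous sheath protein, by 0.0891 (SE 0.056). Of 18 spermatocyte genes 9 were higher, and 13 without the arrays of large gap. The sperm lactate dehydrogenase Ldhc scored 3.93, 3.98, 3.84 and 4.08 against 3.79 to 3.93 (median 3.89), Hspa2, a chaperone of meiotic cells, differed by 0.0745 (SE 0.07) in its brighter and -0.225 (SE 0.13) in its dimmer probe set, and Ybx2, which stores germ cell messenger RNA, by -0.0947 (SE 0.083). Of 18 spermatogonial genes 10 were higher. Kit, the receptor of differentiating spermatogonia, differed by 0.0515 (SE 0.053) (-0.00322 without the arrays of large gap) and Uchl1 by 0.203 (SE 0.14), with its 2 lowest values on Control replicates 02 and 06. The tissue was measured in bulk, so fewer cells of a type and less RNA per cell cannot be told apart.

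No Sertoli cell gene was called over all arrays. Rhox5, a homeobox gene that depends on androgen, scored 0.11, 0.12, 0.13 and 0.16 in P500 and from 0.10 to 0.24 (median 0.19) in Control, a difference of -0.0548 (SE 0.035). Kitlg, the ligand of Kit, scored 0.22, 0.23, 0.25 and 0.24 against 0.10 to 0.35 (median 0.15), with Control replicate 06 the highest array of all. Gdnf, which maintains stem spermatogonia, differed by 0.0281 (SE 0.027), and by -0.0063 without the arrays of large gap. Wt1, a transcription factor of Sertoli cells, differed by -0.00671 (SE 0.1) over all arrays. Without the arrays of large gap 66 of 14217 genes were called higher. Read by the brightest probe set of each gene, Wt1 was the 1 gene of the list called there, higher by 0.122 (adjusted p = 0.047). It scored 0.84, 0.87, 0.89 and 0.94 in P500, 0.75, 0.76, 0.77 and 0.77 on the Control arrays kept and 1.18 and 1.12 on those left out. Of 24 genes, 8 lay higher and 16 lower, with a median of -0.0045, which was -0.031 without the arrays of large gap. Nr5a1, also on this list, was called lower in that fit by its dimmer probe set only.

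Peritubular and fibroblast genes lay mostly lower, and none was called. Peritubular and smooth muscle genes lay lower in 14 of 14 cases with a median of -0.035, yet 5 of the 14 lay higher once the arrays of large gap were left out. Mylk, the myosin light chain kinase, scored 0.99, 1.09, 1.12 and 0.92 in P500 and from 0.99 to 1.36 (median 1.07) in Control, its 2 highest values being Control replicates 02 and 06. The contractile genes Tagln and Myl9 differed by -0.0408 (SE 0.034) and -0.0641 (SE 0.063). Of 25 fibroblast and matrix genes 21 lay lower, with a median of -0.032 and -0.028 without the arrays of large gap. The matrix glycoprotein Sparc scored 1.10, 0.98, 1.11 and 0.85 against 0.98 to 1.28 (median 1.18), Fbln1 differed by -0.0619 (SE 0.034) and the basement membrane collagen Col4a1 by -0.0322 (SE 0.024). None passed. A second probe set of each went the other way, 0.0169 (SE 0.091) for Sparc, 0.0106 (SE 0.024) for Fbln1 and 0.0193 (SE 0.025) for Col4a1. Without the arrays of large gap these second probe sets gave -0.112, -0.00761 and 0.000638.

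Markers of other cells that a testis sample can hold gave 0 calls over all arrays. Of 25 macrophage and antigen presentation genes 12 lay higher, 8 without the arrays of large gap, and the scavenger receptor Cd163 and the growth factor receptor Csf1r, -0.084 (SE 0.044) and -0.0599 (SE 0.032), had their highest values on Control replicate 02. Of 20 mast cell genes 7 lay higher, and without the arrays of large gap Mcpt4 was called lower (adjusted p = 0.046), as were 28 of 14217 over all genes. Besides Mcpt4, the IgE receptor chain Fcer1a differed by -0.0519 (SE 0.022) and the proteoglycan gene Srgn by 0.0846 (SE 0.067). The list mean lay from -0.152 to -0.0936 on the 10 arrays. Lck, a kinase of T cells, scored 1.07, 0.78, 1.15 and 0.69 against 0.57 to 0.83 (median 0.68), a difference of 0.232 (SE 0.1), while Cd3d and Cd5, which T cells carry on their surface, differed by 0.0191 (SE 0.022) and 0.0216 (SE 0.024). Endothelial genes lay higher in 6 of 16, erythrocyte genes in 7 of 7, epididymal genes in 8 of 9 and adipocyte genes in 5 of 16, with medians of -0.01, 0.021, 0.029 and -0.012. Without the arrays of large gap the counts were 9 of 16, 4 of 7, 6 of 9 and 4 of 16, with medians of 0.0074, 0.0085, 0.0061 and -0.026. Of 18 lymphocyte and neutrophil genes 10 lay higher, and 7 without those arrays.

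Transcripts of liver, an organ handled in the same study, were weaker in P500 than in most Control arrays. Alb, the serum albumin gene, scored 0.038, 0.35, 0.046 and 0.016 in P500 and 0.13, 1.65, 1.55, 0.98, 1.32 and 0.60 on Control replicates 02 to 07. All Control arrays but replicate 02 thus lay above every P500 array, and the difference was -0.926 (SE 0.63). The thyroxine carrier gene Ttr, at -0.13, -0.044, -0.10 and -0.08 in P500, lay below every Control array (from -0.0083 to 0.50 (median 0.1)). Of 22 liver genes 18 lay lower, with a median of -0.066 over all arrays and -0.11 without those of large gap, and 0 were called. The list mean was -0.0209 to 0.0174 on P500 arrays and -0.0424 to 0.273 on Control arrays. What part such transcripts had in the differences of other genes was not tested.

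**Figure D3:**
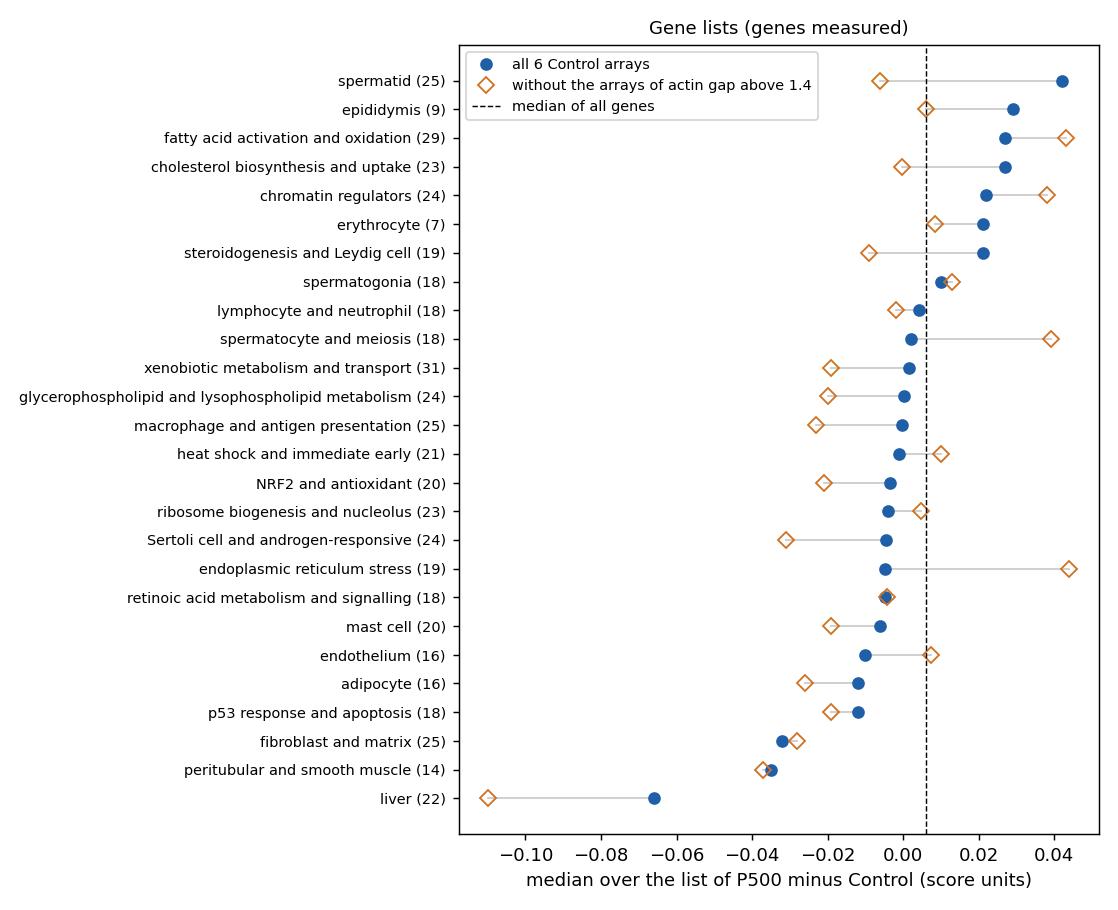
Median over each gene list of P500 minus Control, in score units on the horizontal axis, with the number of genes measured after each name. Circles use all 6 Control arrays, diamonds have arrays whose gap exceeded 1.4 removed, and the dashed line is the median of all genes, 0.0061; the spermatid median goes from 0.042 to -0.0061 and the liver median from -0.066 to -0.11.

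Stress pathways showed no call with all arrays or without those of large gap. Of 20 NRF2 and antioxidant genes 10 lay higher, among them Prdx4, a peroxiredoxin of the endoplasmic reticulum, at 2.27, 2.33, 2.24 and 2.35 against 2.06 to 2.30 (median 2.21) (0.0941 (SE 0.033)). The superoxide dismutase Sod1 differed by 0.0801 (SE 0.048), and by -0.00792 without the arrays of large gap. Of 19 genes of endoplasmic reticulum stress 8 lay higher, with a median of -0.0047, and 12 without the arrays of large gap, with a median of 0.044. Ddit3, which promotes apoptosis under that stress, differed by 0.087 (SE 0.072) and, without the arrays of large gap, by -0.0435, its lowest values being 0.96 and 0.95 on Control replicates 02 and 06. The chaperone Hsp90b1 differed by 0.0665 (SE 0.056). Of 21 heat shock and immediate early genes 10 were higher, and 12 without the arrays of large gap. The cochaperone Dnajb1 scored 3.10, 3.04, 3.03 and 3.12 against 2.67 to 3.07 (median 3.05), with its lowest values on Control replicates 02 and 06, and Hspb1 differed by -0.148 (SE 0.1). Of 18 genes of the p53 response 6 were higher. Bid and Bak1, which open mitochondria in apoptosis, differed by 0.0459 (SE 0.024) and -0.0399 (SE 0.03).

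The 198 probe sets called without the arrays of large actin gap comprised 101 higher in P500 (0.325% of those tested) and 97 lower (0.312%), of 77 and 85 named genes, with a smallest adjusted p of 0.0324 (limma). That fit left out Control replicates 02 and 06 and 3 arrays of other groups and so compared 4 P500 with 4 Control arrays. Gstp1, a glutathione transferase, scored 1.005, 0.9965, 0.99 and 0.90 in P500 and 1.21, 1.16, 1.24 and 1.19 on the Control arrays kept, and it was lower by 0.228 (adjusted p = 0.032). The 2 Control arrays left out scored 0.91 and 0.64, on the P500 side of the others. The GTPase Rhoa, the corepressor Tle5 and Nr5a1, the transcription factor of steroidogenic cells, were likewise lower, by 0.178, 0.234 and 0.105 (adjusted p = 0.039 for each). Genes higher in that fit included Lamp2, a lysosomal membrane protein, by 0.133, Gmcl1, the germ cell-less homologue of spermatogenesis, by 0.243, Ppp3ca, a calcineurin catalytic subunit, by 0.336, and Chuk, a kinase of the NF-kappaB pathway, by 0.198 (adjusted p from 0.032 to 0.039). Other probe sets of Gmcl1 and Ppp3ca were not called and in part went the other way. They gave -0.127 and -0.276 for Gmcl1, and 0.105 and -0.11 for Ppp3ca. Those of Rhoa and Tle5 gave -0.062 for Rhoa, and -0.0126 and 0.0043 for Tle5. The brighter probe set of Nr5a1 gave -0.00898 and that of Lamp2 0.0984.

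The Control arrays left out mostly lay on the P500 side in these calls. The calls were selected for P500 lying far from the 4 Control arrays kept. The shares over all probe sets, given below beside theirs, are therefore not a neutral comparison. Control replicate 02 lay on the P500 side of the 4 Control arrays kept in 183 of the 198 (92.4%), replicate 06 in 191 (96.5%) and both in 177 (89.4%), against 43.6% for both over all probe sets. In 155 (78.3%; 64.5% of all probe sets) the mean of those 2 Control arrays lay beyond the P500 mean. P500 replicate 01, the P500 array of smallest gap, lay nearer to the 4 Control arrays than the mean of the other 3 P500 arrays in 180 (90.9%; 56.3% of all). The gap of P500 exceeded that of the 4 Control arrays by 0.277 (1.14 ± 0.213, SD, n = 4, against 0.859 ± 0.0209, SD, n = 4; exact permutation test, two-sided p = 0.114, smallest possible p 0.029). With the gap as a covariate in that fit, 0 probe sets were called. As the mean gap differed between the groups by 0.277, that cannot separate the gap from exposure. Leaving out Control replicates 02 and 06 alone also left 0 (limma, smallest adjusted p = 0.513, and 2431 with an unadjusted p below 0.05). It compared the same P500 and Control arrays but kept the arrays of large gap of other groups in the shared estimate of spread. Its 0 is therefore no separate check on the differences from Control.

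**Figure D4:**
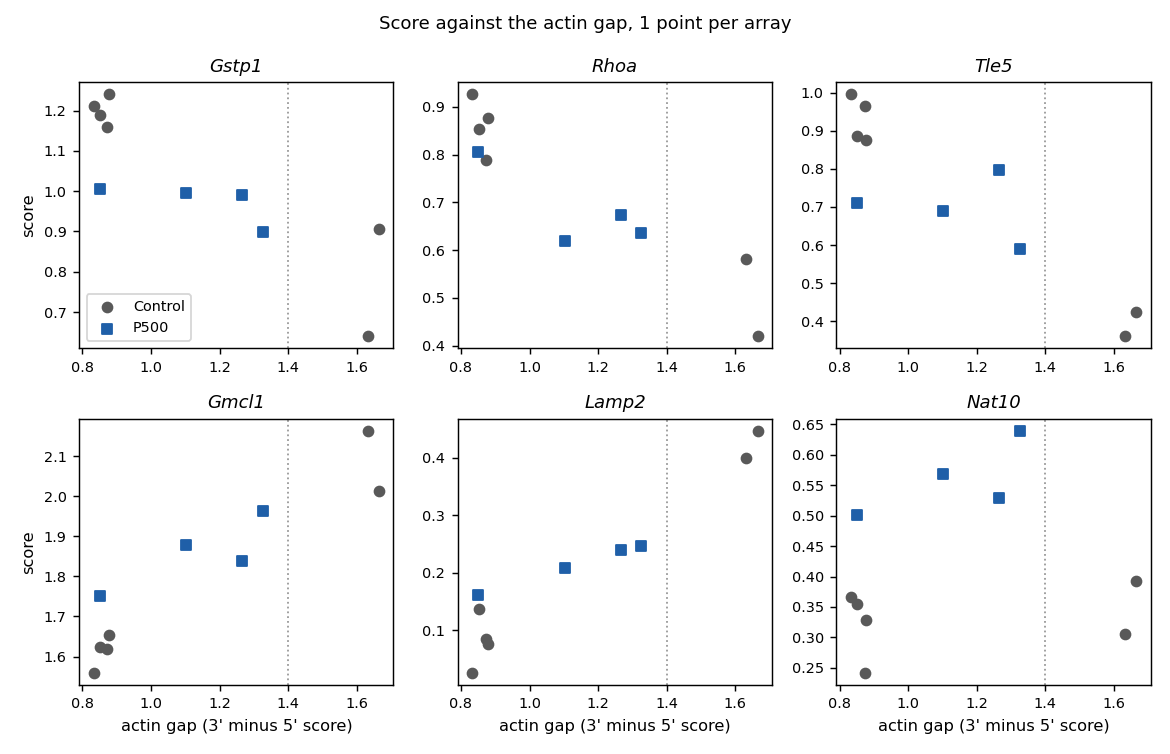
Score of 6 genes against the actin gap (3' minus 5' beta-actin score), 1 point per array, squares for P500 and circles for Control; the dotted line is the gap of 1.4. For Gstp1, Rhoa, Tle5, Gmcl1 and Lamp2 the 2 Control arrays at the right lie on the side of the P500 arrays or beyond them, whereas for Nat10 all P500 arrays lie above every Control array, including those 2.

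The 198 were selected against 4 of the Control arrays. Of them 171 (86.4%; 10.2% of all probe sets) did not overlap those 4, so the next 2 shares are not comparable. Only 9 of the 198 (4.55%; 0.677% of all probe sets) also separated P500 from all 6 Control arrays. They were Arid4b, Nat10, Cyp2g1, Usp6nl and Mcpt4, described above, Stx18, Iffo2 and 2 probe sets with no gene symbol. Stx18, a syntaxin of the endoplasmic reticulum, scored 2.10, 2.11, 2.11 and 2.25 in P500 and from 1.93 to 2.06 (median 1.98) in Control, higher by 0.171 without the arrays of large gap. Iffo2, an intermediate filament family member, scored -0.37, -0.34, -0.31 and -0.38 against -0.30 to -0.22 (median -0.25). The brighter of the unnamed probe sets scored 0.84, 0.88, 0.86 and 0.83 against 0.95 to 1.25 (median 1.14), and the dimmer one -0.069, -0.063, -0.10 and -0.059 against -0.23 to -0.14 (median -0.16). In that fit Arid4b was higher by 0.238, Nat10 by 0.236 and Cyp2g1 by 0.169 (adjusted p = 0.046 for each), close to their differences over all arrays. Both sets of differences use the same P500 arrays and 4 of the same Control arrays, so they are not independent.

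At the same dose of 500 ppm, P500 could be set against 2 related triazoles. Propiconazole carries a dioxolane ring and a dichlorophenyl group beside the triazole, whereas triadimefon has a chlorophenoxy group with a ketone and myclobutanil has a nitrile. No probe set differed from M500 (0 of 31042, 0.0%, smallest adjusted p = 0.156) or from T500 (0 of 31042, 0.0%, smallest adjusted p = 0.375), while 2321 and 1576 had an unadjusted p below 0.05. Adjusted over both comparisons together, limma's smallest p was 0.25. Against M500, whose group is the smallest, 19 probe sets passed without M500 replicate 01, 1 without replicate 02, 1 without replicate 04 and 11 without the arrays of large actin gap. Against T500, 676 passed without the arrays of large gap and 53 with array weights. The chromatin gene Phc1, a Polycomb protein, led both comparisons upwards, with 2.06, 2.16, 2.18 and 2.20 in P500. Its level was 1.93 ± 0.0516 (SD) in M500 and 1.97 ± 0.0702 (SD) in T500, differences of 0.221 (SE 0.043) and 0.185 (SE 0.04). Against M500, the demethylase gene Kdm5b differed by 0.145 (SE 0.029) and the splicing factor gene Sf1 by 0.208 (SE 0.046), and downwards Mecom, Atp1b4 and Prox1 by -0.107, -0.135 and -0.166. Against T500, the mucin gene Muc1 and Lancl1 differed by 0.224 (SE 0.049) and 0.169 (SE 0.038), and downwards the chemokine gene Ccl21, the histone gene Hist4h4 and the matrix gene Ogn by -0.24, -0.275 and -0.254.

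Genes that stood apart from Control were also read against the related compounds, which share the P500 arrays but not the Control arrays with the main comparison. Acsl1 was 1.11 ± 0.0769 (SD) in M500 and 1.04 ± 0.0796 (SD) in T500, and P500 differed from them by -0.0316 (SE 0.11) (interval -0.254 to 0.19) and 0.0432 (SE 0.1) (interval -0.162 to 0.249). Ciita was 0.636 ± 0.0586 (SD) in M500 and -0.0716 ± 0.255 (SD) in T500. P500 differed from M500 by -0.9 (SE 0.21) (adjusted p = 0.27) and from T500 by -0.192 (SE 0.2) (adjusted p = 0.89). Cyp2g1 was 0.375 ± 0.046 (SD) in M500, where P500 differed by 0.00782 (SE 0.042), and 0.281 ± 0.0513 (SD) in T500, where it differed by 0.102 (SE 0.039). Nat10, at 0.309 ± 0.0509 (SD) in M500 and 0.412 ± 0.137 (SD) in T500, differed by 0.25 (SE 0.059) and 0.147 (SE 0.055). Cyp51 differed by 0.0183 (SE 0.15) from M500 (interval -0.287 to 0.323) and 0.268 (SE 0.14) from T500 (interval -0.0141 to 0.551).

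Between the doses of propiconazole, P500 and P2500 differed in 0 of 31042 probe sets (0.0%, by limma). The smallest adjusted p was 0.147, and 1190 had an unadjusted p below 0.05. The count was 231 without P2500 replicate 01, 242 without P2500 replicate 05, 426 without the arrays of large actin gap and 855 with array weights. Cyp2g1 was 0.215 ± 0.039 (SD) in P2500, lower than P500 by a difference of 0.168 (SE 0.037), and close to Control. Ciita was 0.65 ± 0.212 (SD) in P2500, so that P500 lay below by -0.914 (SE 0.19), and the second probe set gave -0.683 (SE 0.14). The kinase gene Pask and the muscle gene Lmod2 led upwards with 0.149 (SE 0.03) and 0.172 (SE 0.037), and Nxpe4 and the interferon-inducible Ifi27l2b downwards with -0.191 (SE 0.035) and -0.313 (SE 0.064). Acsl1 was 1.37 ± 0.0942 (SD) in P2500, near the Control mean, and P500 differed from it by -0.287 (SE 0.095) (adjusted p = 0.53). Arid4b and Nat10, at 0.301 ± 0.0406 (SD) and 0.413 ± 0.0761 (SD) in P2500, lay between Control and P500. Alb was 2.38 ± 2.2 (SD) in P2500, where 3 of the 5 arrays carried strong liver transcripts, so a difference in liver transcripts was measured beside this comparison too.

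**Figure D5:**
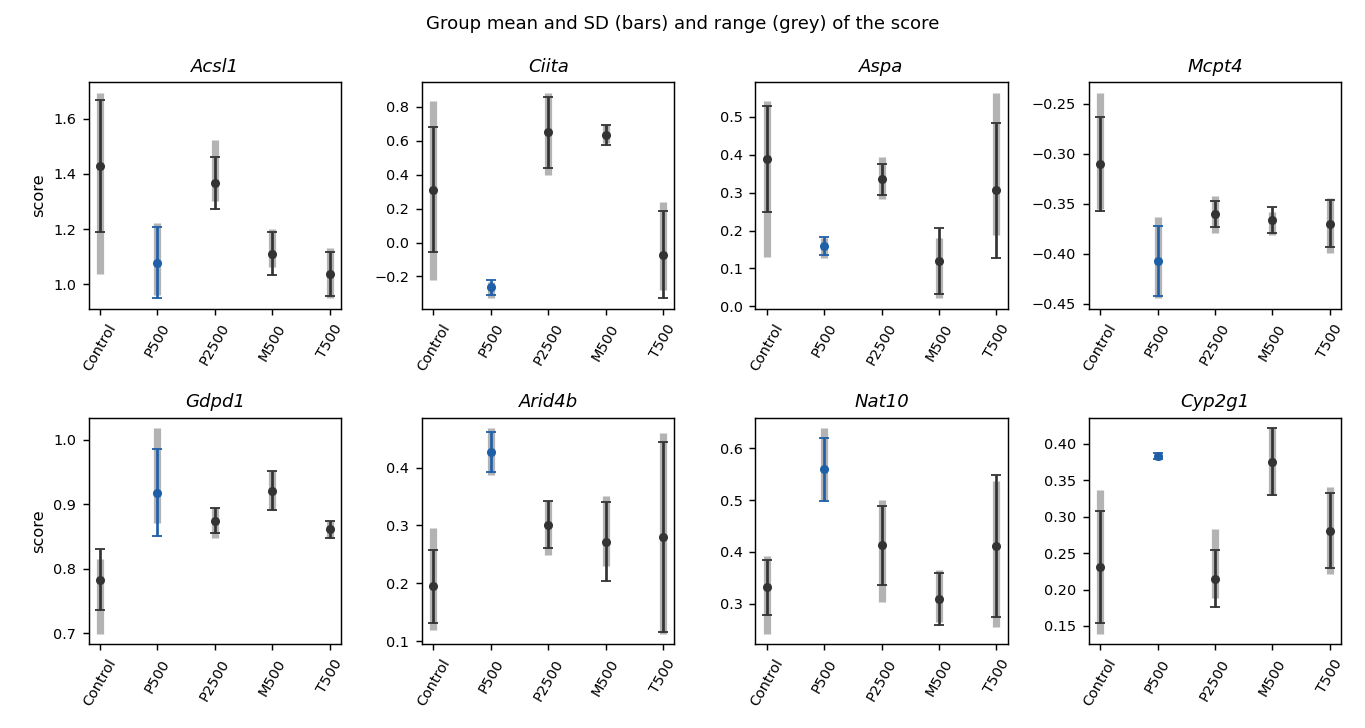
Score of 8 genes in Control (n = 6), P500 (n = 4), P2500 (n = 5), M500 (n = 3) and T500 (n = 4); circles are means, black bars SDs and grey bars the range over arrays. For Acsl1 the M500 and T500 means lie near P500, and for Ciita the P500 mean is the lowest of the 5 groups.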

How the data were processed

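RNA from 1 testis sample per animal was hybridised to Affymetrix rat genome arrays. Per the labels' protocols it was extracted with TRI Reagent, cleaned and labelled as biotin cRNA. The authors deposited 1 score for each probe set and array, which behaves like a logarithm. The sources used here do not give the steps from probe to score. The 31 arrays with values were quantile normalized and fitted together in R 4.3.3 with limma 3.58.1 (lmFit with a mean for each of 7 groups, eBayes), so that groups shared 1 estimate of the spread. Benjamini-Hochberg adjustment ran over 31042 probe sets (57 controls left out), with a threshold of 0.05, and every adjusted p is from limma. The platform annotation paired 20826 probe sets with 1 symbol, 436 with several and 9780 with none (14217 genes), and genes were named only from the first kind. Levels are means ± SD over arrays and differences carry limma's standard error. The number of arrays limits the precision.

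Named were the 12 genes of smallest p in each direction, up to 4 members of each list (probe set of highest mean), 3 genes each way in the comparisons between exposed groups, and a preset set of steroid, retinoid and xenobiotic genes; lists held 1 probe set per gene. Wt1, Cyp2c11, Cyp3a2 and further probe sets of named genes were added after their values were seen. The members, the 26 lists, the actin gap limit of 1.4 and this rule were chosen with earlier results of these data known. Lists are described by counts and medians and were not tested. The background for each count over all arrays is the 57.3% of all genes that lay higher. Members of a list were measured on the same arrays, so they are not independent. The probe set of Cyp2b1 also carries the symbol of Cyp2b2 and was not named. The fit was tested on simulated data. Replicate numbers recur between groups but do not mark pairs: the deviations of same-numbered Control and P500 arrays correlated at -0.106, 0.289 and -0.591. Alternatives were other normalizations, array weights, fewer groups or probe sets, the actin gap or the animal number series as a term, and leaving out arrays; those that left out only Control replicates 02 and 06, or that added the gap as a covariate after leaving out the arrays of large gap, were chosen after seeing the data.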

Additional observations from a re-analysis of the deposited data

Results flagged for a closer look

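Each gene named above was searched for an array that stood far from the others of its group by Dixon's test at the 95% level. Of 302 groups of values, 31 held such an array. Many of these probe sets were named because of their values and all share the same arrays. The level of the test therefore gives no expected count to set beside the 31. Control replicates 02 and 06, the arrays of actin gap above 1.4, supplied 13 and 9 of the 31.

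On Control replicate 02 the scores standing apart were Sf3a2 at 1.8, Cyp19a1 at -0.184, Acaa2 at 1.37, Hsp90b1 at 2.89, Capza3 at 3.01, Col4a1 at 0.62, Cd163 at 0.138, Csf1r at 0.248, Fcer1a at -0.387, Nol6 at 0.873, the brighter probe set of Gdpd1 at 2.15, the dimmest of RT1-Ba at 0.376 and the middle one of 3 for Gmcl1 at 0.0371. On Control replicate 06 they were Rarg at -0.357, Hspb1 at 0.322, Bak1 at -0.161, Kitlg at 0.348, Akap4 at 3.62, Tagln at 0.115, Myl9 at 1.06, Chd4 at 1.27 and the dimmest probe set of Acsl1 at 0.0683. Both sets hold genes of several cell types: sperm structure in Capza3 and Akap4, smooth muscle in Tagln and Myl9, and macrophages in Cd163 and Csf1r. What part RNA quality had in them was not tested. Control replicate 03 stood apart for Zbtb7a at -0.156 and Ing2 at 1.45.

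In P500, replicate 04 stood apart for the dimmer probe set of Gdpd1 at 1.02, Ogn at 0.218, Gstp1 at 0.898, Stx18 at 2.25 and the dimmer probe set of RT1-Db1 at 0.422. That value of Gdpd1 is the highest of its group, and the other 3 P500 arrays also lay above all Control arrays. Replicate 02 stood apart for Odf1 at 4.49 and Alb at 0.347; the Odf1 score there is rank 3 of the array against rank 2 on the other 3, so that gap is 1 step in rank. For Alb, replicate 02 carried the most liver transcript of the 4, and 5 Control arrays carried more.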

How the results depend on the processing

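The count of 0 probe sets differing between P500 and Control held under each alternative run but 2: array weights gave 17 and leaving out the arrays of actin gap above 1.4 gave 198. Leaving out each P500 or Control array in turn gave 0 each time. With only the Control arrays of the earlier animal number series, the smallest adjusted p was 0.0594 (limma), with 2221 at an unadjusted p under 0.05. In the main fit these were 0.96 and 1042, and with the animal number series as a block 0.684 and 1518. With the replicate number as a block 0 passed as well (smallest adjusted p = 0.158, with 3227 at an unadjusted p under 0.05), and the replicate block also gave 0 against M500, T500 and P2500, so it changed no call. Against M500 the count was 1 with the scores as deposited, 11 without the arrays of large gap and 0 to 19 without 1 array. Against T500 it was 53 with array weights, 676 without the arrays of large gap and 0 without any 1 array. Against P2500 it was 855 with array weights, 426 without the arrays of large gap and 0 to 242 without 1 array. The cause was not tested. The 210 probe sets without overlap between P500 and Control became 110 with the scores as deposited and 3181 without Control replicates 02 and 06. The difference in actin gap was -0.154 with the scores as deposited and -0.0497 to 0.122 without 1 array. For the 150 probe sets named in the text, 3563 differences from Control were recomputed over 24 alternatives: 26 passed the threshold, 6 of them with array weights and 20 without the arrays of large gap, and 184 changed sign. Of the latter 1 was called, that of Wt1, from -0.00671 to 0.122 without the arrays of large gap. The sign held throughout for 94 of the 150. Signal over background limits the dim genes: 6.32% to 17.6% of probe sets, depending on the array, scored above the lowest spike-in, bioB.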

Other observations

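The other gene groups below were listed because a member led the comparison, so their leading members carry no weight as support. Of 24 chromatin regulators 17 lay higher in P500, with a median of 0.022, or 0.038 without the arrays of large actin gap. Besides Arid4b, the nucleosome remodelling ATPases Chd4 and Smarca4 differed by 0.0536 (SE 0.035) and 0.0681 (SE 0.047), and the histone reader Ing2 by 0.051 (SE 0.044). Further probe sets gave -0.0268 and -0.0136 for Chd4, -0.0535 and -0.0113 for Smarca4, and 0.0682 and 0.00202 for Ing2. The list mean was 0.928 to 1.0 on P500 arrays, 0.924 to 0.941 on Control replicates 03, 04, 05 and 07, and 0.956 and 0.998 on Control replicates 02 and 06.

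Of 23 ribosome biogenesis and nucleolar genes 10 lay higher, with a median of -0.0039, so Nat10 was not accompanied by most of its group. Nol6, a nucleolar RNA-associated protein, differed by -0.122 (SE 0.06) and its highest array was Control replicate 02, at 0.87. Rcl1 and Polr1a, the large subunit of RNA polymerase I, differed by 0.0475 (SE 0.033) and 0.0434 (SE 0.031). Of 24 glycerophospholipid genes 12 lay higher, among them Gde1, a relative of Gdpd1, at 2.02, 2.03, 2.02 and 2.03 against 1.79 to 2.02 (median 1.95). None of the 3 lists held a call with all arrays.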
